A study of Mus musculus with 8 samples.

Results

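Alveolar type 1 cells are the thin, flat cells through which gas passes in the lung, and a small group of genes is commonly used to recognize them. The group described here holds 10 genes of the 16119 in the deposited table, chosen by symbol (AGER, HOPX, PDPN, AQP5, AQP1, CAV1, EMP2, RTKN2, CFTR and SCNN1A in the capitals of the table): Ager, Hopx, Pdpn, Rtkn2, Emp2 and Cav1, which are known from alveolar type 1 cells, the water channel genes Aqp5 and Aqp1, and the ion channel genes Cftr and Scnn1a. Positions are those of the mouse build GRCm38. All 10 symbols were found, each matched 1 gene of the mouse annotation GENCODE M21, and all 10 were above the limit on low values used for testing.

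The data were 8 RNA libraries of mouse, all labelled wild type and C57BL/6, with no treatment. The labels of 4 libraries name thyroid follicular cell organoids (TFCOs), which are hollow balls of thyroid epithelium grown in basement membrane extract from the cells of a single thyroid, so that each line stands for 1 animal. Each of the lines, mThy14 and mThy16, has 1 library from early and 1 from late passage. They were compared with primary thyroid tissue (2 libraries) and with lung tissue (2 libraries), which the study used as an unrelated control tissue. All TFCOs grew in an expansion medium with R-spondin 3, the TGFβ receptor inhibitor A83-01, the adenylate cyclase activator forskolin (which raises cAMP), EGF, FGF10, nicotinamide, N-acetylcysteine and B27. The tissues were not cultured. The methods state that the organoids came from female mice, and the age of the animals is not given in the sources used here.

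The genes fall into 3 roles. Ager, also called RAGE, is a cell surface receptor of the immunoglobulin family that binds S100 proteins and Hmgb1. Hopx is a small homeodomain protein that does not bind DNA by itself, Pdpn is a membrane glycoprotein also found on lymphatic vessels, and Rtkn2 is a signalling protein of the rhotekin family. Emp2 is a tetraspan membrane protein, and Cav1 is the main structural protein of caveolae, the small pits of the cell membrane that are abundant in endothelium and fat as well as in type 1 cells. Fluid moves across epithelia when ions are pumped and water follows. Scnn1a is the α-subunit of the epithelial sodium channel (ENaC), which draws fluid out of a lumen, Cftr is the cAMP-gated chloride channel that drives secretion into it, and Aqp5 and Aqp1 let water through. The thyroid follicle is likewise a closed lumen lined by epithelium, and thyroid and lung epithelium share the transcription factor Nkx2-1.

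The promoters of Ager, Hopx and Aqp1 are shown because Ager was high in every sample, Hopx was high in lung only and Aqp1 lay between these patterns. Each is the stretch of 250 bases directly before the RefSeq start on build GRCm38.p6, read in the direction of the gene. Capitals mark CTTGAG, which is the reverse complement of CTCAAG, a core sequence bound by NKX2-1. RefSeq entries were found for 8 of the 10 genes. Ager lay at chr17:34597600-34597849 on the plus strand, Hopx at chr5:77115124-77115373 on the minus strand (its first listed start) and Aqp1 at chr6:55336049-55336298 on the plus strand.
Ager: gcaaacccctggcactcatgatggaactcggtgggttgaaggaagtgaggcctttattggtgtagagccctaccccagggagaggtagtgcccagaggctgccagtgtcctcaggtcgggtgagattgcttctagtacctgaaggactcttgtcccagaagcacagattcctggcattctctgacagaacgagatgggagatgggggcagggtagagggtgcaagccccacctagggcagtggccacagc
Hopx: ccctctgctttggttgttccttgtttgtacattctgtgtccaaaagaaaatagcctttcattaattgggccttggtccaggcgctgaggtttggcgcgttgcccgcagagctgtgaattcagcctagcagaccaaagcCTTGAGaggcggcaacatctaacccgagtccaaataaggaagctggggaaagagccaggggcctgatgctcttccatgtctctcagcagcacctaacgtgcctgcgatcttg
Aqp1: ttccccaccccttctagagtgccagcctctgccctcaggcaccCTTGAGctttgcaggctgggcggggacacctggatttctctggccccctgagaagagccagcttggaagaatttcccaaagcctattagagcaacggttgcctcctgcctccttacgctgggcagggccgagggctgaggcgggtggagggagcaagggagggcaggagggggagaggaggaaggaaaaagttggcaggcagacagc
Among the 10 promoter stretches of the 8 genes, CTCAAG in either direction was found in Hopx, at bases -112 to -107 before the start, and in Aqp1, at bases -207 to -202. Of the 32851 mouse promoter stretches of this length that were counted, which do not cover every chromosome, 13.3% held it. A further NKX2-1 core, CAAGTG, which also fits the E-box letters CANNTG, was held by 11.6% of the stretches counted, and the TEAD core GGAATG was held by 12.6%. Neither was found, in either direction, in a promoter of the 8 genes. These matches describe the letters in the window and do not show binding.

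The libraries held 9755081 to 16904865 reads on genes each, and values are normalized counts, that is, reads divided by 1 size factor per library. The libraries fell into 2 sets that cut across the groups, one made up of the TFCOs and thyroid tissue 1 and the other of thyroid tissue 2 and the lungs: 44 genes had at least 50 normalized counts in each library of the first set and none in the second, and 16 genes showed the reverse. Inside a set, TFCOs had only thyroid tissue 1 as a partner, and lung had only thyroid tissue 2. In comparisons of TFCOs with lung, tissue and set cannot be told apart. Where the library set was added to the fit as a term, its size came only from thyroid tissue 2 against thyroid tissue 1. Any other difference between these 2 tissues is counted in that term, so it does not separate set from tissue. A gene listed at 0 is described as such and not as silent, because Eef1g, a gene of the translation machinery, was itself listed at 0 in the set of the TFCOs. Where 2 values are given for a tissue, they are those of tissues 1 and 2 in this order. Differences were tested with limma on log2(normalized counts + 1) with Benjamini-Hochberg adjustment over 14703 genes. For the comparisons with tissue, both passages of a line were first averaged into 1 sample. With 2 samples a group, the p-values measure only the spread between these samples. In the tissue comparisons this spread was pooled over the TFCO lines, the thyroid tissues and the lung tissues. A gene therefore has the same standard error in each of them, and thyroid against lung tissue also carries the difference between the TFCO lines. An exact two-sided permutation test of 2 against 2 cannot go below 0.333.

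By level, Ager had the highest mean of the 10 genes in TFCOs. Levels of different genes were compared per kilobase of the longest annotated transcript, a scale that would not apply if the reads marked only transcript ends, as the CEL-Seq protocol in the labels would imply. On this scale, the mean level of Ager over the 4 TFCO libraries was 5301 normalized counts, followed by Aqp5 with 1870, Aqp1 with 505, Hopx with 131 and Emp2 with 116. Scnn1a had 70.6, Cav1 35.9, Pdpn 30.0, Cftr 9.95 and Rtkn2 1.33 normalized counts per kilobase. In lung tissue Ager was also first, with 21437 normalized counts per kilobase, but Hopx was second with 11264, and Cav1, Emp2 and Aqp1 followed with 6379, 4332 and 4297. In thyroid tissue Ager was first with 9402, far from Cav1 with 686, Aqp1 with 557, Scnn1a with 468 and Emp2 with 447. In the lung tissues all 10 genes were counted, from 312 normalized counts (Cftr) upward. They were chosen as lung genes, so this is no check of the choice. Several neighbours in these orders did not differ beyond the spread of their libraries, among them Hopx and Emp2 in TFCOs, and Cav1, Aqp1, Scnn1a and Emp2 in thyroid tissue. The TFCO ranges of Ager and Aqp5 overlapped as well, although Ager was the higher in each library.

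**Figure D1:**
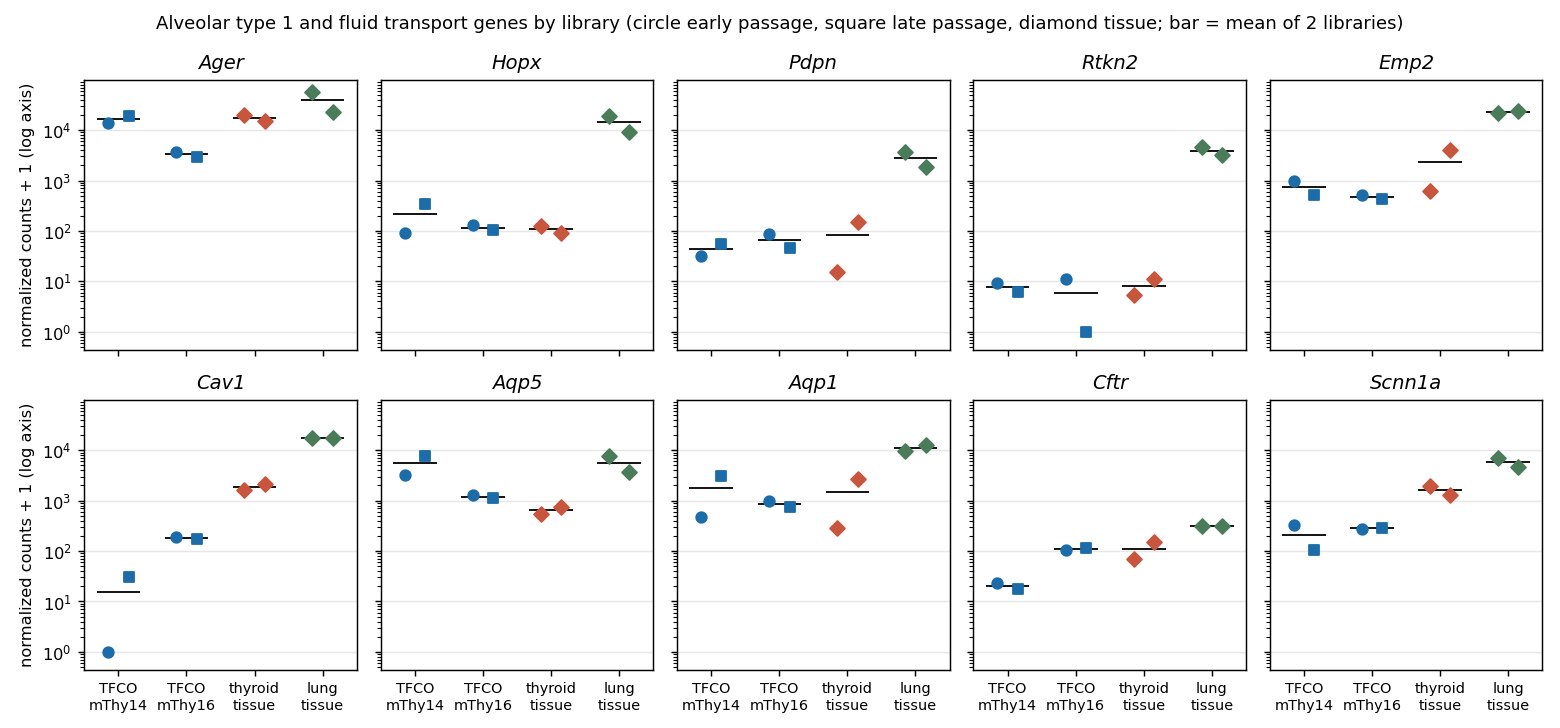
Normalized counts + 1 of the 10 genes in each of the 8 libraries on a log axis, by line and tissue, with a bar for the mean of 2 libraries. Ager has at least 2958 normalized counts in every library, Hopx and Rtkn2 are high in lung tissue only, and Aqp5 of late mThy14 TFCOs lies above both lung tissues.

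Ager was measured at high levels in every library. It had 13702 (early) and 19366 (late) normalized counts in mThy14 TFCOs, 3754 (early) and 2958 (late) in mThy16 TFCOs, against 20265 and 15011 in primary thyroid tissue and 57060 and 23371 in lung. The TFCO range reached from below both thyroid tissues into the range of the thyroid tissues, and all TFCO and thyroid libraries lay below both lung tissues. As a share of the lung mean, the TFCO mean was 24.7% and the thyroid mean 43.9%. The log2 fold change was -1.24 against thyroid tissue (standard error 0.89, limma adjusted p = 0.455), -2.31 against lung tissue (standard error 0.89, adjusted p = 0.091), and -1.07 for thyroid against lung tissue (standard error 0.89, adjusted p = 0.496). None of these differences passed the threshold in the main fit. The difference between TFCOs and lung tissue passed under 2 alternative settings (lowest adjusted p = 0.0386). Among them was the fit with TFCO libraries as separate samples, which ignores that 2 libraries share a line. Ager (chromosome 17, 34597862 to 34600936, plus strand) shared 0 of its 2417 stretches of 31 bases with other annotated genes.

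Hopx (chromosome 5, 77086988 to 77115121, minus strand) had another pattern. It had 90.0 (early) and 342 (late) normalized counts in mThy14 TFCOs, 128 (early) and 103 (late) in mThy16 TFCOs, against 123 and 91.3 in primary thyroid tissue and 19051 and 9356 in lung. All TFCO and thyroid libraries overlapped with each other and lay far below lung, and in bulk samples fewer cells of a type and less RNA per cell cannot be told apart. Against lung tissue Hopx fell by 6.54 on the log2 scale in TFCOs (standard error 0.47, limma adjusted p = 0.000596) and fell by 6.96 in thyroid tissue (standard error 0.47, adjusted p = 0.00111). Between TFCOs and thyroid tissue the log2 difference was 0.42 (standard error 0.47, adjusted p = 0.621). The ratio of Ager to Hopx per kilobase was 2.01 and 1.68 in lung, 111 in each thyroid tissue and 19.3 to 102 in TFCOs. Hopx overlaps the antisense gene Hopxos, with which it shared 382 of its 1504 stretches of 31 bases, and without strand in the counting the reads of both genes cannot be told apart there.

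Pdpn (chromosome 4, 143267431 to 143299564, minus strand) and Rtkn2 (chromosome 10, 67979570 to 68059740, plus strand) were low outside lung. Pdpn had 30.9 (early) and 55.2 (late) normalized counts in mThy14 TFCOs, 86.2 (early) and 45.8 (late) in mThy16 TFCOs, against 14.2 and 148 in primary thyroid tissue and 3691 and 1869 in lung. Rtkn2 was counted from 6 (early) and 5 (late) reads in mThy14 TFCOs and from 10 (early) and 0 (late) reads in mThy16 TFCOs, against 4 and 11 reads in primary thyroid tissue and 5506 and 4797 reads in lung, where these gave 4612 and 3234 normalized counts. Both genes overlapped between TFCOs and thyroid tissue and lay below both lung tissues in every other library. Against lung tissue Pdpn fell by 5.66 on the log2 scale in TFCOs (standard error 1.03, limma adjusted p = 0.0139) and fell by 5.79 in thyroid tissue (standard error 1.03, adjusted p = 0.0249). Rtkn2 fell by 9.59 in TFCOs (standard error 0.83, adjusted p = 0.00123) and fell by 8.97 in thyroid tissue (standard error 0.83, adjusted p = 0.00359), and at so few reads these values depend on the pseudocount. With the library set as a term the Pdpn difference between TFCOs and lung tissue was -2.37 (adjusted p = 0.247), and without lung tissue 1 or 2 its adjusted p was 0.132 and 0.0959. Between thyroid and lung tissue the adjusted p without lung tissue 1 or 2 was 0.232 and 0.181 for Pdpn and 0.0922 and 0.0845 for Rtkn2. The mean of Rtkn2 in TFCOs was 0.150% of the lung mean. The thyroid tissues differed by 10.4-fold in Pdpn, with the higher value in thyroid tissue 2, so the sign of the TFCO difference, 0.13 on the log2 scale against both tissues (adjusted p = 0.95), was 1.78 against thyroid tissue 1 and -1.51 against thyroid tissue 2.

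Emp2 (chromosome 16, 10281749 to 10313968, minus strand) had 997 (early) and 515 (late) normalized counts in mThy14 TFCOs, 507 (early) and 430 (late) in mThy16 TFCOs, against 628 and 4074 in primary thyroid tissue and 21834 and 23774 in lung. Thyroid tissue 1 lay within the TFCO range, and thyroid tissue 2 lay above it. Against lung tissue Emp2 fell by 5.30 on the log2 scale in TFCOs (standard error 0.80, limma adjusted p = 0.0079) and fell by 3.83 in thyroid tissue (standard error 0.80, adjusted p = 0.0398). The difference between TFCOs and thyroid tissue was -1.47 (adjusted p = 0.36) and -0.12 against thyroid tissue 1 alone. Without thyroid tissue 1 it was -2.81, which rests on thyroid tissue 2 alone, a library of the other set than the TFCOs. The call between TFCOs and lung tissue had an adjusted p of 0.0938 with the library set as a term (log2 difference -2.60) and of 0.0631 and 0.0754 without lung tissue 1 or 2, and the call between thyroid and lung tissue had 0.232 and 0.25 without them. The latter was also lost under 4 other settings, among them quantile normalization (0.052), voom (0.055) and no mean-variance trend (0.085). Its relatives Emp1 and Emp3 fell in TFCOs against thyroid tissue, with log2 fold changes of -4.53 (limma adjusted p = 0.0308) and -3.83 (adjusted p = 0.0185), and voom called 0 of them.

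Cav1 (chromosome 6, 17306335 to 17341452, plus strand) was lower in both mThy14 than in both mThy16 libraries. It was listed at 0 in early mThy14 TFCOs, and late mThy14 TFCOs had 29.1 normalized counts, from 28 reads. Early and late mThy16 TFCOs had 189 and 176, the thyroid tissues 1655 and 2111, and the lung tissues 17570 and 17462 normalized counts. The 3 kinds of sample did not overlap, with TFCOs lowest and lung highest (17.3% of all genes had all TFCOs below both thyroid tissues), and the TFCO mean was 0.562% of the lung mean against 10.8% for the thyroid mean. Against lung tissue Cav1 fell by 9.11 on the log2 scale in TFCOs (standard error 1.38, limma adjusted p = 0.00788). The difference of -5.88 between TFCOs and thyroid tissue (standard error 1.38, adjusted p = 0.072) did not pass the threshold over all libraries, and it was -4.65 with adjusted p = 0.0234 without the early mThy14 library. The difference from lung tissue had an adjusted p of 0.196 with the library set as a term and of 0.0631 and 0.0702 without lung tissue 1 or 2. Thyroid against lung tissue gave -3.23 (standard error 1.38, adjusted p = 0.222). This standard error is shared with the TFCO lines, whose difference in Cav1 was -5.06 on the log2 scale (mThy14 minus mThy16). The size of that difference depends on the pseudocount, because Cav1 was listed at 0 in early mThy14.

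Other caveola genes were compared with Cav1. Cav2, which pairs with Cav1, had 21.1 (early) and 98.9 (late) normalized counts in mThy14 TFCOs, 339 (early) and 281 (late) in mThy16 TFCOs, against 415 and 1530 in primary thyroid tissue and 5426 and 7928 in lung. Cavin1, a coat protein of caveolae, had 585 to 2741 normalized counts in TFCOs and 2181 and 2430 in primary thyroid tissue, with a log2 difference of -0.79 (limma adjusted p = 0.487). Per kilobase, Cavin1 exceeded Cav1 by 10.4-fold to 21.0-fold in the TFCO libraries where Cav1 was counted, against 1.04 and 0.905 in primary thyroid tissue and 0.424 and 0.366 in the lung tissues. Cavin2 had 54.8 to 554 normalized counts in TFCOs, 248 and 837 in primary thyroid tissue and 9864 and 13103 in lung (difference from thyroid tissue -1.72, adjusted p = 0.191). Of the 8 genes of the caveola list that were tested, 1 fell in TFCOs against thyroid tissue, Ehd2 (log2 fold change -3.42, adjusted p = 0.0201), and 6 fell against lung tissue. Of all genes, 3.05% fell against thyroid tissue and 13.5% against lung tissue. The median log2 difference of the list from thyroid tissue was -3.03, beside 0.05 over all genes.

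Aqp5 (chromosome 15, 99590782 to 99594829, plus strand) stood above primary thyroid tissue in every TFCO library. It had 3258 (early) and 7782 (late) normalized counts in mThy14 TFCOs, 1276 (early) and 1126 (late) in mThy16 TFCOs, against 545 and 731 in primary thyroid tissue and 7617 and 3720 in lung. All 4 TFCO libraries lay above both thyroid tissues, as they did for 17.2% of all genes, and mThy14 TFCOs reached the lung range, with late mThy14 at 137% of the lung mean. The TFCO to thyroid difference was 1.96 on the log2 scale (standard error 0.70) and did not pass the threshold over all genes (limma adjusted p = 0.2). Within the set, against thyroid tissue 1, it was 2.17, and it lay between 1.64 and 2.27 when any 1 library was left out. Against lung tissue the difference was -1.12 for TFCOs (standard error 0.70, adjusted p = 0.248) and -3.07 for thyroid tissue (standard error 0.70, adjusted p = 0.0505). The latter passed under 5 alternative settings, among them without late mThy14 (adjusted p = 0.0304) or late mThy16 (adjusted p = 0.0457).

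Aqp1 (chromosome 6, 55336432 to 55348555, plus strand), the water channel of endothelium and red cells as well as of some epithelia, had 484 (early) and 3105 (late) normalized counts in mThy14 TFCOs, 981 (early) and 732 (late) in mThy16 TFCOs, against 291 and 2635 in primary thyroid tissue and 9858 and 12718 in lung. TFCO and thyroid libraries overlapped, and all lay below both lung tissues. In TFCOs Aqp1 fell by 3.46 on the log2 scale against lung tissue (standard error 0.92, limma adjusted p = 0.039). With the library set as a term the difference was -0.28 (adjusted p = 0.847), where the term holds the gap of 3.18 between the thyroid tissues. The adjusted p was 0.0865 without early mThy14, 0.169 and 0.184 without lung tissue 1 or 2, 0.0792 without the mean-variance trend and 0.0614 with voom. Thyroid against lung tissue gave -3.68 (standard error 0.92, adjusted p = 0.0647), and TFCOs against thyroid tissue 0.22 (standard error 0.92, adjusted p = 0.907). Without thyroid tissue 2 the first of these was -5.26, which rests on thyroid tissue 1 alone, a library of the other set than lung. As with Pdpn and Emp2, the thyroid tissues differed, here by 9.07-fold with the higher value in thyroid tissue 2. Per kilobase, Aqp5 exceeded Aqp1 in every TFCO library, by 1.90-fold to 9.85-fold, whereas it was 2.74 and 0.406 times Aqp1 in primary thyroid tissue and 1.13 and 0.428 times in lung.

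Of the 8 other aquaporins tested, 1 fell in TFCOs against thyroid tissue, where 3.05% of all genes fell. Aqp3, which also carries glycerol, had 5.62 to 11.5 normalized counts in TFCOs and 257 and 233 in primary thyroid tissue (log2 fold change -4.69, standard error 0.92, limma adjusted p = 0.0433). Voom called 0 of the 8. Aqp6, a channel of intracellular vesicles, had 48.5 to 222 in TFCOs and 99.1 and 141 in primary thyroid tissue and was listed at 0 in both lung tissues. Aqp11 was higher in TFCOs than in lung tissue by 3.12 on the log2 scale (adjusted p = 0.0266), at 123 to 509 against 33.5 and 20.9 normalized counts. Aqp4 lay below both thyroid tissues in every TFCO library, at 4.22 to 21.8 against 54.4 and 209, with a difference of -3.00 (adjusted p = 0.153).

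Scnn1a (chromosome 6, 125320659 to 125344943, plus strand) was the only gene of the 10 that passed the test between TFCOs and thyroid tissue, where 3.65% of all genes passed. It had 322 (early) and 102 (late) normalized counts in mThy14 TFCOs, 276 (early) and 288 (late) in mThy16 TFCOs, against 1976 and 1302 in primary thyroid tissue and 6998 and 4692 in lung. The 3 kinds of sample did not overlap, with TFCOs lowest. In TFCOs Scnn1a fell by 2.82 on the log2 scale against thyroid tissue, which is 7.06-fold lower (standard error 0.41, limma adjusted p = 0.0161), and it was -3.12 against thyroid tissue 1 alone. The adjusted p was 0.055 without thyroid tissue 2, 0.0543 and 0.0542 without lung tissue 1 and 2, 0.0522 with the library set as a term and 0.0537 without the mean-variance trend. Against lung tissue Scnn1a fell by 4.66 in TFCOs (standard error 0.41, adjusted p = 0.00127) and fell by 1.84 in thyroid tissue (standard error 0.41, adjusted p = 0.0487). The latter call was lost without any 1 of early mThy14, early mThy16, either thyroid tissue or either lung tissue (adjusted p between 0.0534 and 0.357), and under 7 other settings, 13 alternatives in all.

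The partner subunits of ENaC did not pass this test. Scnn1b, the β-subunit, had 3763 (early) and 5958 (late) normalized counts in mThy14 TFCOs, 1622 (early) and 1413 (late) in mThy16 TFCOs, against 3778 and 2362 in primary thyroid tissue and 1916 and 1225 in lung. Scnn1g, the γ-subunit, had 106 to 399 in TFCOs, against 266 and 215 in primary thyroid tissue and 2674 and 1782 in lung. TFCOs overlapped with thyroid tissue in both, with log2 differences of -0.16 for Scnn1b (standard error 0.59, limma adjusted p = 0.895) and -0.22 for Scnn1g (standard error 0.47, adjusted p = 0.809). Against lung tissue Scnn1g fell by 3.40 in TFCOs (adjusted p = 0.0058) and fell by 3.19 in thyroid tissue (adjusted p = 0.0159), and the difference in Scnn1b was 0.81 and 0.96 (adjusted p = 0.32 and 0.377). Per kilobase, Scnn1b was 0.370 and 0.353 times Scnn1a in the lung tissues, 2.58 and 2.45 times in primary thyroid tissue, and 15.8, 78.9, 7.93 and 6.62 times in early mThy14, late mThy14, early mThy16 and late mThy16 TFCOs. The 4 TFCO ratios lay above both thyroid ratios, which lay above both lung ratios. Whether the protein balance followed was not measured.

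Of 12 genes for ENaC subunits and their regulators, 0 passed the limma test between TFCOs and thyroid tissue, with 3 at an unadjusted p under 0.05 and 0 called by voom. Their median log2 difference was 0.12, beside 0.05 over all genes. Against lung tissue 4 were higher and 3 lower in TFCOs, where 9.83% of all genes were higher and 13.5% lower. Atp1b1, the β-subunit of the basolateral sodium pump, was higher than in lung tissue by 3.04 on the log2 scale (adjusted p = 0.0359), at 26358 to 90285 normalized counts in TFCOs. Its difference from thyroid tissue was 0.81 (adjusted p = 0.564). Furin, a protease that cleaves and activates ENaC, was higher than in lung tissue by 1.63 (adjusted p = 0.0447) and differed from thyroid tissue by 1.32 (adjusted p = 0.194).

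Cftr (chromosome 6, 18170687 to 18322768, plus strand) had low counts in all samples, lung included. Antisense genes overlap Cftr and Rtkn2, and of their stretches of 31 bases 1.32% and 4.22% were shared with other genes. It had 22.5 (early) and 16.7 (late) normalized counts in mThy14 TFCOs, 102 (early) and 114 (late) in mThy16 TFCOs, against 68.6 and 148 in primary thyroid tissue and 319 and 312 in lung. The mThy14 libraries rested on 16 reads each and lay below both thyroid tissues, while the mThy16 libraries lay between them. The log2 differences were -1.12 against thyroid tissue (standard error 0.89, limma adjusted p = 0.495), -2.75 against lung tissue (standard error 0.89, adjusted p = 0.0614) and -1.63 for thyroid against lung tissue (standard error 0.89, adjusted p = 0.328). The difference between TFCOs and lung tissue passed under 4 alternative settings. In 2 of these a thyroid tissue was left out, so that 1 sample remained in that group. Of 16 other genes of chloride and potassium transport, 0 passed in limma between TFCOs and thyroid tissue (2 at an unadjusted p under 0.05, 0 by voom, median 0.60). Against lung tissue 2 of them fell, where 13.5% of all genes fell. Slc12a2, the cotransporter that loads chloride into secreting cells, had 1406 (early) and 2840 (late) normalized counts in mThy14 TFCOs, 4916 (early) and 5978 (late) in mThy16 TFCOs, and 1995 and 2097 in primary thyroid tissue (difference 0.69, adjusted p = 0.473). Ano1, a calcium-gated chloride channel, had 429 (early) and 1307 (late) in mThy14 TFCOs, 3704 (early) and 3994 (late) in mThy16 TFCOs, and 311 and 420 in primary thyroid tissue (difference 2.23, adjusted p = 0.16). Slc4a2, an anion exchanger, varied less, with 1206 to 1443 normalized counts in TFCOs.

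**Figure D2:**
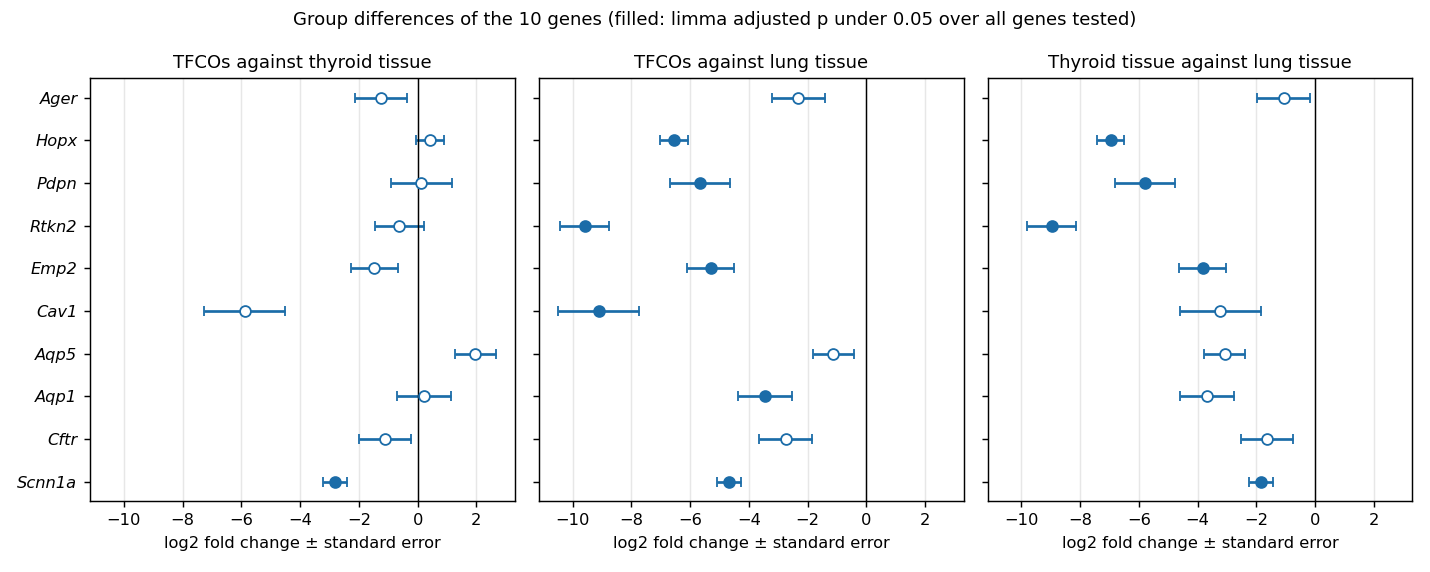
Log2 fold changes of the 10 genes with their standard errors in 3 comparisons of 2 samples a group, with filled points where the limma adjusted p is under 0.05. Only Scnn1a is filled against thyroid tissue, 7 genes are filled between TFCOs and lung tissue and 5 between thyroid and lung tissue.

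Across the group, 1 of the 10 genes fell and 0 rose in TFCOs against thyroid tissue. Of all genes tested, 3.05% fell and 0.599% rose, 3.65% in all, and 1 gene of 10 is too small a count to read against these shares. The median log2 difference of the 10 genes was -0.87, beside 0.05 over all genes. The 4 TFCO libraries all lay above both thyroid tissues in 1 gene (Aqp5) and below both in 2 genes (Cav1 and Scnn1a), whereas 17.2% of all genes were above and 17.3% below in this way, 34.5% together. In TFCOs against lung tissue 7 of the 10 genes fell and 0 rose, with a median of -4.98 beside 0.05 over all genes, where 13.5% of all genes fell and 9.83% rose (23.4% together). TFCO libraries lay below both lung tissues in 9 of the 10 genes, all except Aqp5, and above them in 0, against 33.3% and 34.4% of all genes (67.7% without overlap). In thyroid against lung tissue 5 of the 10 genes fell and 0 rose (3.16% and 2.89% of all genes, 6.05% together), and both thyroid tissues lay below both lung tissues in all 10 genes, against 27.5% of all genes below, 26.2% above and 53.8% without overlap. Within the library sets, TFCOs minus thyroid tissue 1 was -1.46 for Ager, 0.21 for Hopx, 1.81 for Aqp1, -5.71 for Cav1, -0.09 for Rtkn2 and -0.56 for Cftr on the log2 scale. Thyroid tissue 2 minus lung was -1.28 for Ager, -7.18 for Hopx, -4.15 for Pdpn, -2.86 for Aqp5, -2.09 for Aqp1, -3.05 for Cav1, -2.48 for Emp2, -8.44 for Rtkn2, -1.08 for Cftr and -2.14 for Scnn1a, all below lung as over both tissues. These rest on 1 thyroid library each and were not tested. The comparisons share samples, and their counts are not independent of each other. The genes were chosen as lung genes, so a lower level outside lung was built into the choice.

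Other genes of alveolar type 1 cells were read from a list of 24 symbols, of which 22 were in the table and all of these were tested. In TFCOs 4 of them fell and 1 rose against thyroid tissue, and 16 fell and 0 rose against lung tissue, with medians of -0.63 and -4.20 on the log2 scale beside 0.05 over all genes in both comparisons. Of all genes, 3.05% fell and 0.599% rose against thyroid tissue, and 13.5% fell against lung tissue. Voom called 3 of the 22 against thyroid and 15 against lung tissue. In thyroid against lung tissue 13 fell and 0 rose (11 called by voom), where 3.16% of all genes fell. Pmp22, a relative of Emp2, had 16.7 to 125 normalized counts in TFCOs against 3454 and 2697 in primary thyroid tissue (log2 fold change -6.38, limma adjusted p = 0.00104). Clic5, a chloride intracellular channel protein, and Spock2, a proteoglycan of the matrix, had log2 fold changes of -3.95 (adjusted p = 0.0111) and -3.13 (adjusted p = 0.0209). Limch1, which binds nonmuscle myosin, moved the other way: it had 3228 (early) and 10540 (late) normalized counts in mThy14 TFCOs, 2969 (early) and 2326 (late) in mThy16 TFCOs, against 427 and 541 in primary thyroid tissue and 9980 and 12544 in lung. It was 8.13-fold higher in TFCOs than in thyroid tissue (log2 fold change 3.02, standard error 0.46, adjusted p = 0.019).

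The ligands of Ager and the factors around these genes were looked at in the same way. Of 6 ligand genes 1 fell in TFCOs against thyroid tissue: S100b had 0 and 0 normalized counts in mThy14 TFCOs, 4.95 (early) and 10.1 (late) in mThy16 TFCOs, and 352 and 1352 in primary thyroid tissue (log2 fold change -7.92, limma adjusted p = 0.019). Voom called 0 of the 6 ligand genes, and with limma 3.05% of all genes fell against thyroid tissue. Hmgb1, a nuclear protein that binds Ager once released, had 5207 to 7301 in TFCOs, 6895 and 1799 in primary thyroid tissue, and 2277 and 2465 in lung (difference from thyroid tissue 0.83, adjusted p = 0.474). S100a6 separated the lines, with 23.9 (early) and 11.5 (late) normalized counts in mThy14 TFCOs and 2194 (early) and 2280 (late) in mThy16 TFCOs. S100a9, a calcium-binding protein of neutrophils, fell by 9.28 in TFCOs against lung tissue (adjusted p = 0.0023) and differed from thyroid tissue by -2.69 (adjusted p = 0.215). Of 8 factors known for type 1 fate, 0 passed in limma against thyroid tissue (0 at an unadjusted p under 0.05, 0 by voom, median log2 difference 0.66). Nkx2-1 had 12088 (early) and 11848 (late) normalized counts in mThy14 TFCOs, 4422 (early) and 3521 (late) in mThy16 TFCOs, 7778 and 4401 in primary thyroid tissue, and 2890 and 1721 in lung, with a difference of 0.23 from thyroid tissue (adjusted p = 0.85). The coactivators Yap1 and Wwtr1 differed from thyroid tissue by 0.07 (adjusted p = 0.926) and 0.16 (adjusted p = 0.872).

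The 2 lines held different levels of several of the genes, at both passages. Ager was 3.65-fold higher in mThy14 than in mThy16 at early passage and 6.55-fold higher at late passage, and Aqp5 was 2.55-fold and 6.91-fold higher. Cftr was higher in mThy16, by 4.54-fold and 6.85-fold. Both mThy14 libraries lay above both mThy16 libraries in 3 of the 10 genes (Ager, Aqp5 and Emp2), and below them in 2 (Cav1 and Cftr). This separation held above for 29.1% and below for 26.4% of all genes (55.5% together), so the shares in the group were near the background. Each line is 1 animal, and no test of the lines was made. The thyroid follicular markers were split by line as well: 7 of the 8 listed were above in mThy14, and their summed level was 162672 (early) and 98505 (late) normalized counts in mThy14 TFCOs against 24094 (early) and 20246 (late) in mThy16 TFCOs. Of the 16 chloride and potassium transport genes, 8 were below and 3 above in mThy14, and of the 12 ENaC genes 5 were below and 6 above.

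**Figure D3:**
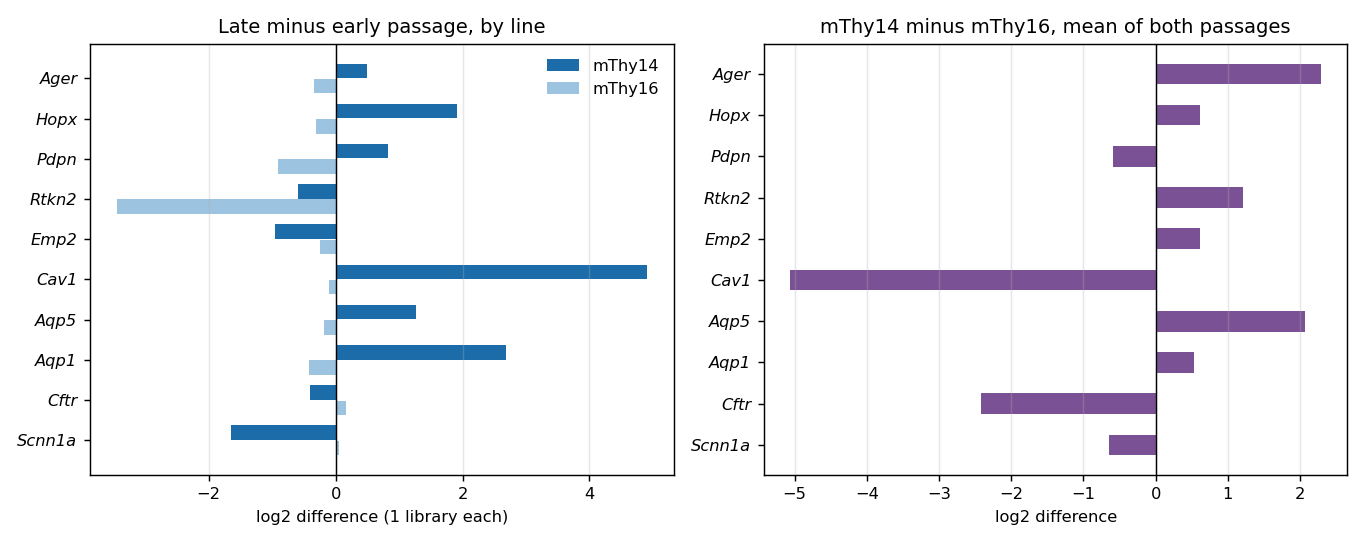
Log2 differences of the 10 genes between late and early passage in each line (1 library each) and between the lines (mean of both passages). The passage differences of Hopx, Aqp5 and Aqp1 are 1.92, 1.26 and 2.68 in mThy14 and -0.31, -0.18 and -0.42 in mThy16, and the line difference of Cav1 is -5.06 (mThy14 minus mThy16). The Cav1 values that use early mThy14, listed at 0, depend on the pseudocount.

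Between late and early passage, 0 of the 10 genes passed the limma test, with adjusted p = 1 for each and an unadjusted p under 0.05 for 0 of them. This fit had no term for the line. Its spread therefore holds the differences between the lines and between the 2 libraries of each tissue. Over all 14703 genes 0 were called, which is 0%, and 166 had an unadjusted p under 0.05. With the line as a block 0 genes were called as well (382 at an unadjusted p under 0.05), and voom on the recovered reads called 0 (84 at an unadjusted p under 0.05). Within mThy14, 4 of the 10 genes were at least 2-fold higher at late passage (Hopx, Aqp5, Aqp1 and Cav1), against 8.88% of all genes, and Scnn1a was lower by more than that, against 16.6%. Aqp1 was 6.42-fold higher, from 344 reads at early and 2983 reads at late passage. Within mThy16, 0 of the 10 were at least 2-fold higher (7.68% of all genes) and 1 was lower, Rtkn2, from 10 reads to 0 (6.99% of all genes). These are single libraries, with no replicate of a line at a passage.

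Marker genes of other cell types were summed in each library, because several of the 10 genes are used by more than 1 cell type. The 11 blood endothelial markers summed to 423 to 867 normalized counts in TFCOs, 4591 and 10956 in primary thyroid tissue, and 38729 and 62898 in lung, and Cdh5, which defines endothelium, had 1.04 to 28.1 in TFCOs against 330 and 1165 in primary thyroid tissue. This order, with TFCOs lowest and lung highest, is that of Cav1 and Scnn1a, and the lymphatic endothelial and leukocyte sums had it too. In thyroid tissue 2, where Pdpn, Aqp1 and Emp2 were high, blood endothelial markers summed to 10956 against 4591 in thyroid tissue 1. Pecam1 with 2124 against 196 and Emcn with 1682 against 22.9 differed most. Cdh5 (1165 against 330), Kdr (2511 against 1245) and Esam (644 against 165) were higher in thyroid tissue 2 too. So were Egfl7 (662 against 348), Erg (234 against 78.4) and Vwf (374 against 291). Only Cldn5 (97.7 against 229), Tek (492 against 551) and Tie1 (968 against 1134) were higher in thyroid tissue 1. The 2 thyroid tissues are of different library sets. Set and cell content cannot be told apart in these differences or in those of Pdpn, Aqp1 and Emp2. The 5 lymphatic endothelial markers summed to 107 to 210 in TFCOs, 529 and 653 in thyroid tissue and 4314 and 6624 in lung tissue. Lum, a fibroblast gene, was listed at 0 in each TFCO library. Fibroblast markers (7 genes) summed to 150 to 358 in TFCOs, 30134 and 26029 in thyroid tissue and 23085 and 40409 in lung tissue, and leukocyte markers (7 genes) to 71.7 to 105, 1070 and 1732, and 8699 and 5433. The part of these cells in the levels of Cav1, Aqp1, Pdpn, Emp2 and Scnn1a was not tested.

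Epithelial markers of lung were compared too. The 9 alveolar type 2 markers summed to 65590 (early) and 15308 (late) normalized counts in mThy14 TFCOs, 21703 (early) and 19517 (late) in mThy16 TFCOs, against 4481 and 10111 in primary thyroid tissue and 448647 and 300178 in lung. In primary thyroid tissue nearly all of the sum was Abca3 (2595 and 3704), Napsa (992 and 5711) and Etv5 (830 and 587). Each other marker had at most 70.1 normalized counts there. With limma, where 0.599% of all genes rose and 3.05% fell, 4 of the 9 rose in TFCOs against thyroid tissue and 0 fell. These were the surfactant protein genes Sftpb (log2 fold change 7.18, adjusted p = 0.00177) and Sftpd (8.65, adjusted p = 0.00592), the phosphate transporter gene Slc34a2 (7.03, adjusted p = 0.00781) and the transcription factor gene Etv5 (2.44, adjusted p = 0.0189), named after their values were seen. Sftpb reached from 1475 normalized counts in late mThy14 to 28177 in early mThy14 TFCOs, against 25.0 and 28.6 in primary thyroid tissue and 56914 and 34374 in lung. Sftpc, which defines type 2 cells, had 7.03 to 266 normalized counts in TFCOs and 9.80 and 5.53 in primary thyroid tissue, against 241128 and 180943 in lung. The 5 markers of club and secretory airway cells summed to 91.4 to 183 in TFCOs, 99.1 and 1808 in primary thyroid tissue, and 689764 and 277453 in lung. Thyroid tissue 2, the library with more Pdpn, Aqp1 and Emp2, also had the higher sum here, and it is of the other library set than thyroid tissue 1. In primary thyroid tissue, skeletal muscle markers (7 genes) summed to 45847 and 148707, C cell markers (3 genes) to 41181 and 66422, parathyroid markers (3 genes) to 9811 and 25996 and adipocyte markers (5 genes) to 2319 and 7627, and in TFCOs these were at most 3343, 98.4, 27.1 and 50.6. Smooth muscle and pericyte markers (7 genes) reached 1567 to 2654 in TFCOs and 5563 and 9956 in primary thyroid tissue, but they did not move together. Myh11 was the largest part of each TFCO sum, with 1069 to 1668 against 1206 and 668 in primary thyroid tissue. Cnn1 was higher in TFCOs (109 to 228 against 105 and 13.8), and Acta2 overlapped. Rgs5 (1.12 to 21.8 against 575 and 3870), Des, Tagln and Cspg4 were lower in every TFCO library than in both thyroid tissues. The 3 red cell genes listed summed to 55.9 to 95.6 in TFCOs and 2850 and 1905 in primary thyroid tissue. The part of these cells in the differences of the 10 genes was not tested.

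**Figure D4:**
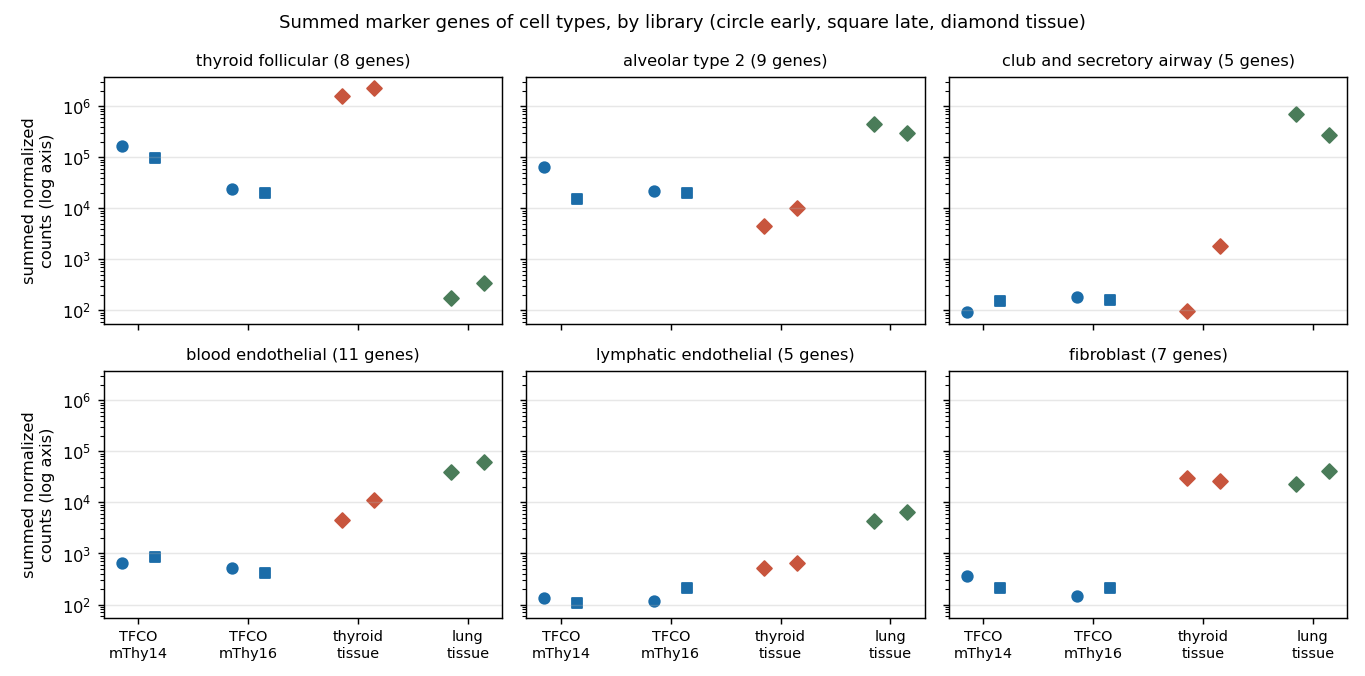
Summed normalized counts of 6 marker lists in each library on a log axis. Blood endothelial markers are at most 867 in TFCOs, 4591 and 10956 in primary thyroid tissue and 38729 and 62898 in the lung tissues, while fibroblast markers are about as high in thyroid as in lung tissue.

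The genes whose log2 levels followed each of the 10 most closely over the 8 libraries were read as a description, with Pearson's r, since the libraries share lines, tissues and sets. Ager went with Nr1d1 (r = 0.986), a repressor of the circadian clock, and with Psmb9 (r = 0.963). Both were higher in mThy14 than in mThy16, with Nr1d1 at 1491 (early) and 1725 (late) normalized counts in mThy14 TFCOs and 569 (early) and 404 (late) in mThy16 TFCOs. Hopx went with Sftpc (r = 0.993) and Cst8 (r = 0.992), both low outside lung. In late mThy14 TFCOs, which held the highest TFCO level of Hopx, Sftpc had 266 and Cst8 3.12 normalized counts, and in the other TFCOs Sftpc had 7.03 to 35.7 and Cst8 was listed at 0. Pdpn went with Pard6b (r = 0.985) and Rnf144b (r = 0.984), Rtkn2 with Gfra1 and Edn3 (r = 0.981 each), and Emp2 with Tnfaip8l3 (r = 0.997) and Sp100 (r = 0.990). Cav1 went with Ralgapa2 (r = 0.995) and Ifit2 (r = 0.992), Aqp5 with Dram1 (r = 0.967) and Efna1 (r = 0.951), and Aqp1 with Gapt (r = 0.977) and Socs5 (r = 0.969). Cftr went with Anxa3 (r = 0.993) and Gab2 (r = 0.992): Anxa3, a calcium-dependent phospholipid-binding protein, had 82.9 (early) and 62.5 (late) normalized counts in mThy14 TFCOs and 1245 (early) and 1229 (late) in mThy16 TFCOs. Scnn1a went with Spi1 (r = 0.994), a factor of myeloid cells with 3.12 to 15.8 normalized counts in TFCOs, and with Thrb (r = 0.992), a thyroid hormone receptor. Within the group, r between Ager and the other 9 genes lay between 0.179 (Cftr) and 0.704 (Rtkn2), and Hopx and Rtkn2 had r = 0.951.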

How the data were processed

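RNA of 8 mouse libraries, 2 in each of 4 groups, was measured, and the libraries were grouped by their labels. The authors deposited 1 table of normalized counts for 16119 genes (analysed as a signal), and 100.0% of values in each library were whole multiples of 1 step, within 0.02 of a read, so reads were recovered by division. The methods name a stranded polyA kit, paired-end reads and a count-model package, whereas the labels describe an adapted CEL-Seq protocol. The submitters' processing notes list BWA 0.6.2-r126 and the builds hg38 and mm10 with no role. The annotation used for counting, the strand setting and the counting tool are not given in the sources used here.

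The tests were made in R 4.3.3 with limma 3.58.1, on log2(normalized counts + 1) and with its mean-variance trend. They covered the 14703 genes that reached 10 normalized counts in 2 or more libraries. The 3 tissue comparisons used 6 samples in 1 fit (2 line means, 2 thyroid and 2 lung tissues), and the passage comparison used all 8 libraries. The scripts were tested on simulated data. A planned count-model test was left out because 1 library, whose step is close to 1, did not pass a check of recovered reads, and limma's voom on recovered reads was added after seeing the data. The lines pair early with late libraries, since both come from the same animal: the differences between lines at early and late passage correlated with r = 0.477 over 14703 genes.

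Levels per kilobase used the longest transcript in GENCODE M21. The 10 genes, the pathway lists and the marker lists were chosen with earlier results of these data known. All 10 genes were named, and of each pathway list the up to 4 genes with the largest change past the threshold in TFCOs against thyroid tissue or, where fewer than 2 passed, the up to 3 with the highest mean level, plus Scnn1b, Scnn1g, Cav2, Cavin1, Aqp3, Aqp4, Nkx2-1 and Slc12a2. A gene that this rule named is not reported here. For each of the 10, the 2 genes with the highest Pearson r were named. Alternatives were the pseudocount, the filter, the scaling, the trend, the TFCO libraries as separate samples, the library set, a replicate block, the transcript length and leaving out each library. Depth was 9755081 to 16904865 reads on genes, and with 2 samples a group the spread between samples limits the precision of all but genes with few reads.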

Additional observations from a re-analysis of the deposited data

Results flagged for a closer look

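In 8 of the 10 genes the lines moved in opposite directions between early and late passage. Late minus early on the log2 scale was 0.50 in mThy14 and -0.34 in mThy16 for Ager, 1.92 and -0.31 for Hopx, 0.82 and -0.90 for Pdpn, and 1.26 and -0.18 for Aqp5. It was 2.68 and -0.42 for Aqp1, 4.91 and -0.11 for Cav1 (listed at 0 in early mThy14, so that the first value depends on the pseudocount), -0.41 and 0.16 for Cftr, and -1.65 and 0.06 for Scnn1a. Each line has 1 library at each passage, so these differences were not tested, and 46.6% of all 14703 genes had opposite signs as well. With 2 samples a group no sample could be examined for standing apart from its group.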

How the results depend on the processing

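With 2 samples a group, the calls depended on single libraries. Leaving out a tissue library left 1 sample in that group and took the spread of that group out of the pooled estimate. Calls gained in this way are listed but not read as results. The count of the 10 genes called in TFCOs against thyroid tissue was 1, and it was 2 with a pseudocount of 8 and 2 with voom (Cav1 joined Scnn1a), 0 without the trend, 0 with the library set as a term, and between 0 and 2 when 1 library was left out: 0 without thyroid tissue 2 or either lung tissue, and 2 without early mThy14 (Cav1 added) or thyroid tissue 1 (Emp2 added). Against lung tissue the count of 7 in TFCOs was 3 with the set as a term (Hopx, Rtkn2 and Scnn1a) and between 3 and 8 with 1 library left out, 3 without either lung tissue. For thyroid against lung tissue the count of 5 was 3 without the trend and between 1 and 6 with 1 library left out, 1 without either lung tissue. Between passages it was 0 under each setting. Over all genes, 536 were called in TFCOs against thyroid tissue, 1322 with TFCO libraries as separate samples, 178 with the set, 232 with voom and 153 to 4085 with 1 library left out (4085 without thyroid tissue 1). Against lung tissue 3435 were called, 6625 with separate samples, 174 with the set and 248 to 6986 with 1 left out, and thyroid against lung tissue gave 889 and 58 to 4311. Without late mThy16, 2 genes were called between passages. The causes were not tested beyond the fewer samples.

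The TFCO lines pair the passages, and the replicate block by line changed no call among the 10 genes. For thyroid against lung tissue the samples share only a number (correlation of their deviations -0.0726), and the replicate block gave 2 of the 10 genes and 167 genes in all.

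None of the sign changes below was a called result. In TFCOs against thyroid tissue, leaving out 1 library moved Hopx between -0.06 (late mThy14) and 0.90, Pdpn between -1.51 (thyroid tissue 1; -0.09 without early mThy16 and -0.07 without late mThy14) and 1.78, Aqp1 between -1.37 (thyroid tissue 1; -0.45 without late mThy14) and 1.81, and Rtkn2 between -1.48 and 0.24 (late mThy16). Quantile normalization gave -0.04 for Aqp1. Between passages the ranges were -1.28 (late mThy14; -0.86 without early mThy16) to 1.43 for Ager, -0.06 (late mThy14) to 1.67 for Hopx, -0.77 to 0.68 (early mThy16; 0.09 without late mThy16) for Pdpn, -0.86 (late mThy14; -0.14 without early mThy16) to 1.93 for Aqp5, -1.38 (early mThy14) to 6.19 for Cav1 and -1.48 to 1.23 (late mThy14; 0.94 without early mThy16) for Cftr. Quantile normalization gave 0.24 for Pdpn and 0.13 for Cftr. Quantile normalization moved the median of all genes from 0.05 to 0.17 against thyroid tissue, from 0.05 to 0.32 against lung tissue and from 0.03 to 0.14 between the tissues. The median level of the 10 genes in TFCOs was 93.5 normalized counts per kilobase of the longest transcript and 65.3 per kilobase of merged exons. Rtkn2 in TFCOs and Cav1 and Cftr in mThy14 rest on too few reads for small differences to be detectable.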
